A study of Ovis aries with 18 samples.

Results

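ALDH5A1 encodes succinate semialdehyde dehydrogenase, a mitochondrial enzyme of the aldehyde dehydrogenase family. It carries out the last step of the GABA shunt, in which the carbon of GABA re-enters the citric acid cycle as succinate, and its loss in people causes a disorder with raised gamma-hydroxybutyrate. A heterozygous SNP in a transcript marks which of the 2 chromosomes of an animal an RNA read came from. A departure from an equal number of reads of both alleles is called allelic imbalance (AI). The members described here were the 60 SNPs that the deposited table assigned to ALDH5A1, out of 24355 SNPs in 5810 genes. Only 1 gene held more SNPs, and the median gene held 3. The gene was selected on its reference and alternate read counts, through its many SNPs and their AI, so its AI counts and reference shares are given as a description, with no test.

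The RNA-Seq data came from the perirenal adipose tissue, a fetal depot of brown fat around the kidney, of 18 untreated wild type singleton fetuses of pure bred Merino sheep at 132 days of gestation. All 18 formed 1 group. They had a common sire and unrelated ewes, which were fed their maintenance energy requirement. There were 16 females and 2 males (RS903 and RS918), and each animal was 1 library. Genotypes were called by the authors from the same RNA reads, so 0/0, 0/1 and 1/1 below stand for calls with 0, 1 and 2 alternate alleles and not for an independent DNA genotype. The reads over all SNPs totalled 2970824 to 5334585 per animal, and the median depth at a SNP was 45 to 82 reads per animal over the whole table and 134 to 265 in ALDH5A1. RS929, labelled female, was called heterozygous at 29.1% of X-linked SNPs, near the 25.4% and 32.4% of the males and below the 54.1% to 69.7% of the other 15 females. The sex label of RS929 was kept, and values that rest on it are also given without it. Markers of the tissue were looked up. Of 7 brown fat genes 5 held a SNP in the table, and so did 3 of 7 genes of fat cells. The median reads per animal at their SNPs ran from 116.5 in PPARGC1A to 10416.5 in UCP1, the uncoupling protein, among the brown fat genes. Among markers of other cells, 1 of 5 for muscle (MB, median 29 reads) and 1 of 4 for adrenal gland (STAR, median 50 reads) were listed. None of 4 each for kidney and blood were listed. A gene without a SNP that passed the authors' filter was not measured, so the counts of listed genes cannot check the tissue label.

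The 60 SNPs lay on chromosome 20 of the Oar v3.1 assembly between positions 32124512 and 32142192, over 17681 bp. The 3′ UTR, the end of the messenger RNA behind the coding sequence, was at the lower coordinates. It held 41 SNPs between 32124512 and 32127703, and the other 19 lay in coding sequence from 32127804 to 32142192: 17 synonymous, 1 synonymous in a splice region at 32133582, and 1 missense at 32127895. The widest gap within the 3′ UTR, of 397 bp, was taken to split it into a distal stretch of 16 SNPs (32124512 to 32126418) and a proximal stretch of 25 SNPs (32126815 to 32127703). Each SNP was called heterozygous in 5 to 13 animals.

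The genotype calls fell into blocks. SNPs whose genotype numbers had a squared correlation of at least 0.8 were joined into linkage groups, and 56 of the 60 SNPs fell into 4 groups of 5 or more. The alternate alleles of 23 SNPs, all between 32126815 and 32127895, occurred together and are called group A. Group A1, of 18 SNPs from 32124512 to 32138388, was carried by some of the A chromosomes. Group B, of 5 SNPs in the distal 3′ UTR, was carried by 10 animals, of which 4 also carried A. The 10 SNPs of the remaining group followed A and B alike: the numbers of A and B alleles of an animal added up to its number at the tag SNP of that group in 17 of 18 animals, with RS903 as the exception. A chromosome with neither A nor B is called R, since it matched the reference at these SNPs. These haplotype names were made here from the calls.

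**Figure D1:**
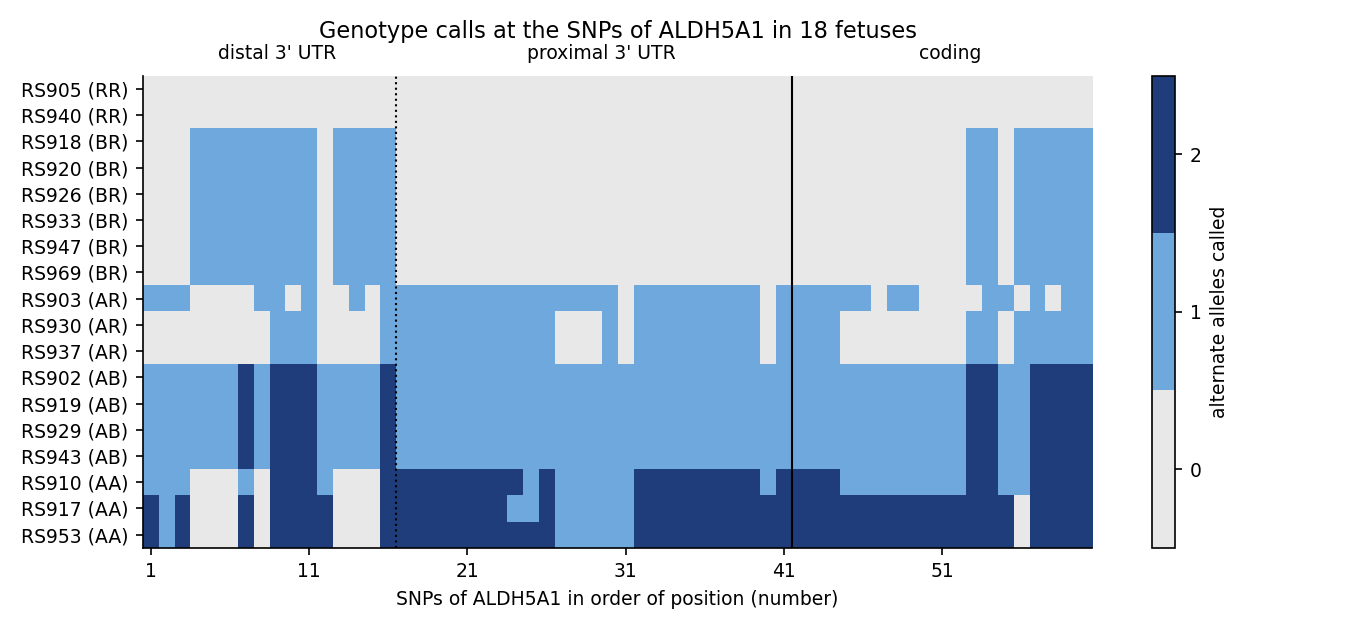
The number of alternate alleles called (grey 0, light blue 1, dark blue 2) is drawn for each fetus, in rows sorted by the haplotypes carried, at the 60 SNPs of ALDH5A1 in columns by position. The vertical lines part the distal 3′ UTR, the proximal 3′ UTR and the coding SNPs, and the animals with 2 R chromosomes are grey throughout.

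The calls gave 6 B and R animals (RS918, RS920, RS926, RS933, RS947 and RS969), 4 A and B animals (RS902, RS919, RS929 and RS943), 3 A and R animals (RS903, RS930 and RS937), 3 animals with A on both chromosomes (RS910, RS917 and RS953) and 2 with R on both (RS905 and RS940), and 0 with B on both. The R and R animals were heterozygous at 0 of the 60 SNPs, the B and R animals at 19 each and the A and B animals at 49 each. RS917 and RS953 held A1 on both chromosomes, and RS910 held A1 on 1 and another A on the other. The A chromosome of the 4 A and B animals was of the A1 kind at its tag SNP, and that of the 3 A and R animals was not. The A chromosome of RS903 was unlike those of RS930 and RS937: RS903 was called 0/1 at 8 of the 14 A1 SNPs outside the A/C run described below and 0/0 at 6, whereas the other two were called 0/0 at 14 of 14. If the calls and the common sire hold, animals with A1 on both chromosomes and animals with R on both give the sire A1 and R. The B of every B carrier and the A of every A and R animal would then come from the ewe, which for RS903 rests on the 6 A1 SNPs called 0/0. Haplotype and parent of origin therefore cannot be told apart in these animals.

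On reads summed over the heterozygous animals, 38 of the 60 SNPs had a Poisson likelihood ratio P-value under 0.05 without adjustment, against a percentage of 45.0% of 24244 SNPs tested over the whole table. The reference allele was higher at 32 of them and the alternate allele at 6, where the percentages over the table were 33.8% and 11.1%. The test gains power with depth, and the depth in ALDH5A1 was above that of the table, as given above. The median share of reads with the reference allele was 0.531 over the gene and 0.519 over all tested SNPs. Of the 41 SNPs in the 3′ UTR, 26 showed AI, 21 with the reference allele higher. Of the 17 synonymous SNPs 11 showed AI, 10 with the reference allele higher. The synonymous SNP in the splice region did not pass, with a reference share of 0.511. Without RS929, 36 SNPs showed AI and the median share was 0.533.

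**Figure D2:**
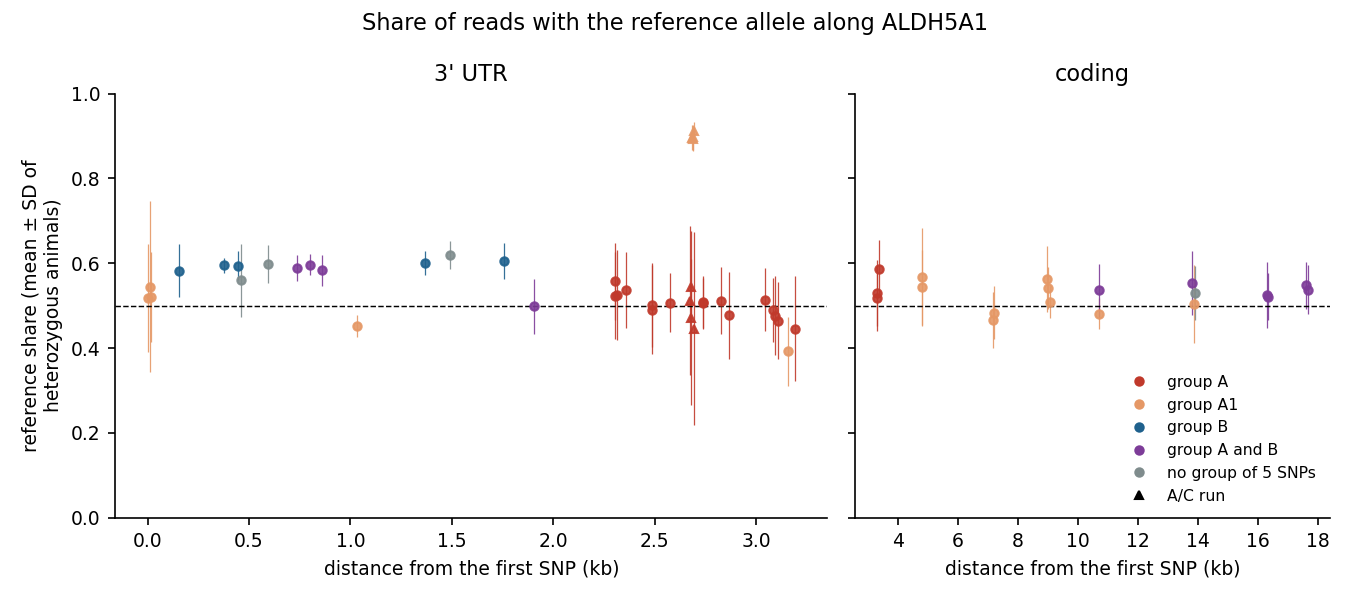
Each point is a SNP, at its distance in kb from the first SNP of ALDH5A1, and shows the mean share of reads with the reference allele over the animals called heterozygous, with bars of 1 SD between animals. Colours give the linkage group and triangles the 8 SNPs of the A/C run. The SNPs of group B lie between 0.582 and 0.606, 4 SNPs of the run lie near 0.9, and the dashed line is an equal share.

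The shares differed along the gene. In the distal 3′ UTR 13 of 16 SNPs showed AI, 12 with the reference allele higher, and the median reference share was 0.585. In the proximal 3′ UTR, without the A/C run described below, 6 of 17 SNPs showed AI and the median share was 0.505. In the coding sequence 12 of 19 showed AI and the median was 0.530. The SNP with the largest statistic outside the run was 32126002 in the distal 3′ UTR, with 1541 reference and 950 alternate reads and a reference share of 0.620 ± 0.0330 (SD, n = 11 animals, 0.578 to 0.694). The reference allele was higher in 11 of 11 animals. The SNP with the lowest share was 32127670, at the inner end of the 3′ UTR, with 256 reference and 389 alternate reads. Its share was 0.517 in RS910 and 0.289 to 0.396 in the 4 A and B animals, with RS943 lowest (95% Wilson interval 0.214 to 0.379, which covers counting error only, as do the intervals below).

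At the missense SNP, 32127895, the reference share was 0.587 ± 0.0669 (SD, n = 7 animals), lowest in RS902 (0.512) and highest in RS903 (0.696, interval 0.621 to 0.761). The reference allele was higher in 7 of 7 animals. The 3 A and R animals had 0.611, 0.630 and 0.696, and the 4 A and B animals 0.512, 0.514, 0.547 and 0.598, so that these sets of animals did not overlap. This split was seen in the data and was not tested. Another 3 animals were called 1/1 and 8 were called 0/0 there.

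The spread between animals comes from the same counts as the shares and is also a description. By the Pearson chi-square test of both allele counts over the heterozygous animals, with Benjamini-Hochberg adjustment over all 24205 SNPs with enough animals, 33 of the 60 SNPs were heterogeneous at an adjusted P-value under 0.05, against 15.4% of SNPs over the table. They were 20 of 41 SNPs in the 3′ UTR and 13 of 19 in the coding sequence. SNPs of 1 gene share reads and animals, so these are not independent results. The median dispersion, the chi-square per degree of freedom that is near 1 for counting error alone, was 3.65 in ALDH5A1 and 1.41 over all tested SNPs. For the same spread of shares, both the calls and the dispersion grow with depth. The median depth per animal was 134 to 265 reads in ALDH5A1 and 45 to 82 over the table, so these comparisons are not at equal depth. At the tag SNP of group B, 32124890, the dispersion was 0.389, and 1 of the 5 SNPs of that group was heterogeneous. At 32127703 in group A it was 9.09.

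Animals with the same haplotypes differed less from one another, as a description over the SNPs heterozygous in each set. Among the B and R animals the median dispersion was 1.15 over 19 SNPs, among the A and B animals 1.15 over 41 SNPs and among the A and R animals 1.90 over 30 SNPs. The reference share at a SNP of group A was therefore a mean over unlike kinds of animal. At 32127703 it was 0.273 to 0.387 in animals with A and B and 0.527 to 0.626 in those with A and R.

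To follow 1 chromosome against the other, the reads were assigned to haplotypes, and the share of a haplotype was averaged over the SNPs of a region in each animal. SNPs with another SNP within 5 bp and the A/C run were left out. In the 6 B and R animals the share of R in the coding sequence was 0.503 ± 0.0319 (SD, n = 6), with 0.533 in RS918, 0.549 in RS920, 0.478 in RS926, 0.471 in RS933, 0.501 in RS947 and 0.483 in RS969. There were 3 above an equal share and 3 below it. In the distal 3′ UTR the share of R was 0.588 ± 0.0165 (SD, n = 6), from 0.560 in RS969 to 0.608 in RS933. The distal share was higher than the coding share in 6 of 6 animals, by 0.0854 ± 0.0376 (SD, n = 6). R carries the reference allele at each of these SNPs, so the share of R and the share of the reference allele are one quantity there.

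In the 4 A and B animals the share of A in the coding sequence was 0.505 in RS902, 0.495 in RS919, 0.470 in RS929 and 0.457 in RS943. In the distal 3′ UTR it was 0.577, 0.590, 0.555 and 0.587 in the same order, and in the proximal 3′ UTR 0.564, 0.548, 0.547 and 0.619. Each of the 4 animals was thus nearer to an equal share in the coding sequence, or below it, than in the 3′ UTR. The difference between distal and coding shares was 0.0954 ± 0.0248 (SD, n = 4), above 0 in 4 of 4 animals. Without RS929 the means were 0.486 in the coding sequence, 0.585 in the distal and 0.577 in the proximal 3′ UTR.

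In these animals the alternate allele sits on A at some SNPs and on B at others. At the 7 distal SNPs with the alternate allele on B the share of A was 0.592 ± 0.0116 (SD, n = 4), above an equal share in 4 of 4 animals. At the 2 distal SNPs with the alternate allele on A it was 0.525 ± 0.0342, above an equal share in 3 of 4. At the 11 proximal SNPs the alternate allele was on A throughout, and there A, and with it the alternate allele, held 0.569 ± 0.0340 of the reads and was above an equal share in 4 of 4 animals. At the 10 coding SNPs with the alternate allele on A the share of A was 0.478 ± 0.0231, and at the 1 coding SNP with it on B 0.519 ± 0.0171.

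In the 3 A and R animals the share of R was 0.651 in RS903, 0.591 in RS930 and 0.628 in RS937 in the coding sequence. It was 0.653, 0.530 and 0.572 in the distal and 0.604, 0.561 and 0.550 in the proximal 3′ UTR. R was above an equal share in 3 of 3 animals in each region, and the distal share was above the coding share in 1 of 3, RS903, by 0.00222. The coding shares of these animals lay above the 0.471 to 0.549 of R in the B and R animals. In RS910, with A1 and another A, the share of A1 was above an equal share at 10 of 10 coding SNPs, with a median of 0.557 (0.510 to 0.647), and 0.558 to 0.620 at 3 distal SNPs. At the single proximal SNP it was 0.483.

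**Figure D3:**
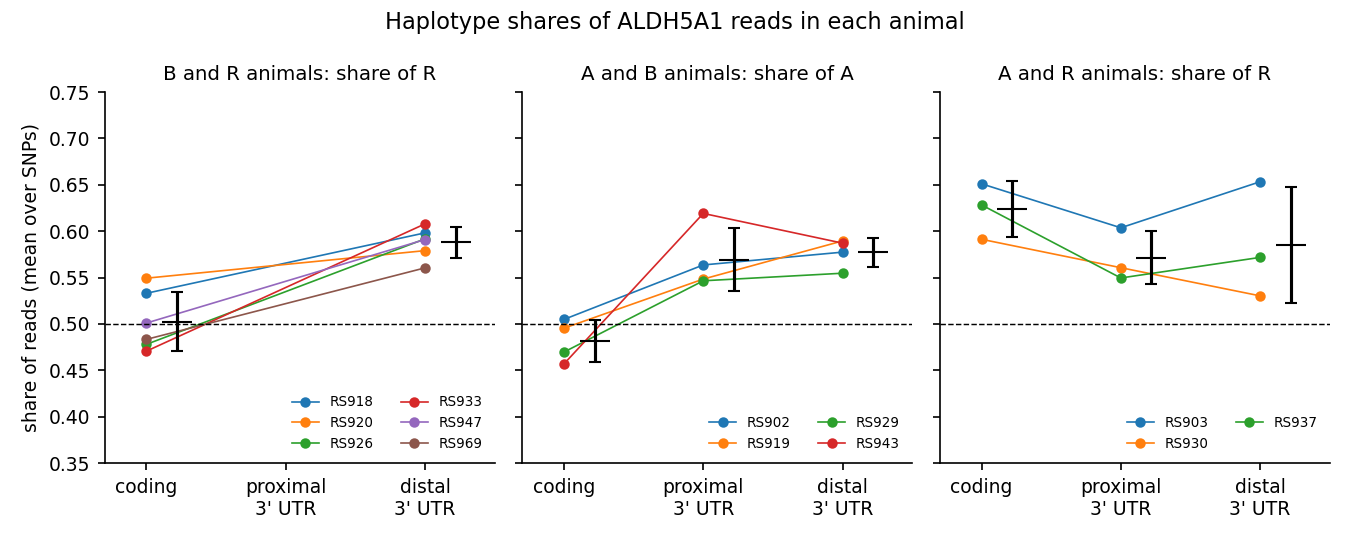
Points joined by a line are 1 animal, and show the mean share of reads from the haplotype named above each panel in the coding sequence, the proximal 3′ UTR and the distal 3′ UTR. Black marks are the mean and SD over animals. The lines rise from coding to distal in the B and R and the A and B panels, and the A and R animals are above an equal share in each region. The B and R animals were heterozygous at no proximal SNP.

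The haplotypes followed above, R in the B and R and the A and R animals and A1 in the others, are the ones the sire would have passed on. Over the 14 animals that could be followed, their share in the distal 3′ UTR was 0.530 to 0.653 with a median of 0.588, above an equal share in 14 of 14. In the coding sequence it was 0.457 to 0.651 with a median of 0.503, above an equal share in 8 of 14. In the proximal 3′ UTR it was above in 7 of 7 animals with at least 2 SNPs there. RS910, left out for having 1 SNP there, was below, at 0.483. Without RS903 the distal share was above in 13 of 13 animals and the coding share in 7 of 13. In the 9 B and R and A and R animals these shares are also reference shares. In the 4 A and B animals this holds at 7 distal SNPs, where the alternate allele was on B. At the 2 distal SNPs with it on A, the share of A was 0.525, above an equal share in 3 of 4 animals. In RS910 the alternate allele was on A1 at its 3 distal SNPs, where A1 held 0.558 to 0.620 of the reads. Neither the reading by parent nor that by reference allele was tested.

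A run of 8 SNPs in 19 bp of the proximal 3′ UTR, 32127187 to 32127205, stood apart. Each was an A-to-C or C-to-A change, and the run was delimited here after its values were seen, as the longest chain of such SNPs not more than 10 bp apart. At 4 of them, 32127197, 32127199, 32127201 and 32127205, the reference share was 0.890 to 0.909, and these were the 4 largest statistics of the gene, 861 to 884 against 142 at the next SNP. The reference allele was higher in 8 of 8, 8 of 8, 8 of 8 and 7 of 7 animals.

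The calls of RS917 and RS953 at these 4 SNPs, and the read shares there, were unlike those around the run. RS917 and RS953 were called 1/1 at 32 of the 33 SNPs of groups A and A1 outside the run, but 0/1 at these 4 SNPs, with mean reference shares of 0.892 and 0.843. The 4 A and B animals, called 0/1 at 33 of 33 SNPs outside the run, had mean shares of 0.899, 0.927, 0.914 and 0.909 in it and between 0.460 and an equal share outside it. Of the A and R animals, RS930 and RS937 were called 0/0 at the 4 SNPs, and RS903 was called 0/1 at 3 of them with a mean share of 0.919. At 32127203 the 10 heterozygous animals ranged from 0.109 (interval 0.0744 to 0.157) to 0.715, the largest dispersion of the gene (36.8), with 0.113, 0.109 and 0.163 in RS910, RS917 and RS953, the 3 animals with A on both chromosomes, and an equal share or more in the other 7.

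Reads of an allele that an animal was called to lack made up 0.761% of the reads of homozygous calls in the run and 0.119% outside it. Without the 8 SNPs of the run, 31 of 52 SNPs showed AI and 30 were heterogeneous, the median reference share was 0.528, and the highest was 0.619. How the alignment treated the run was not tested.

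**Figure D4:**
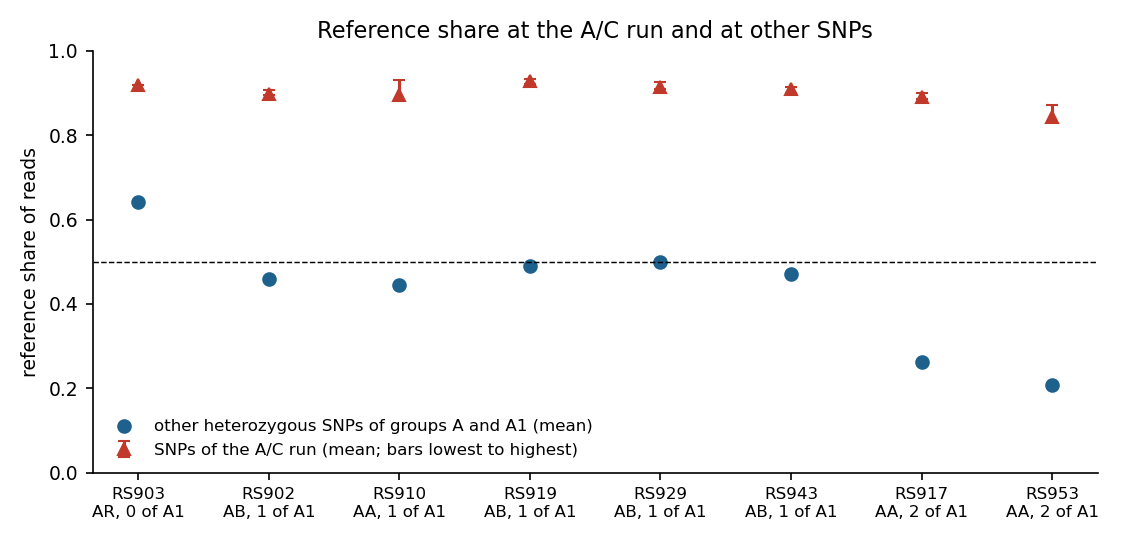
Red triangles are the mean reference share over the 4 SNPs 32127197, 32127199, 32127201 and 32127205 in each animal called heterozygous there, with bars from the lowest to the highest SNP, and blue points are the mean over the other heterozygous SNPs of groups A and A1. The 8 animals lie between 0.843 and 0.927 in the run. Outside it RS917 and RS953 rest on 1 SNP each.

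The level of ALDH5A1 was taken as its reads of either allele over the 60 SNPs per 1000000 reads of the whole table (RPM). It is made of the same reads as the shares, and a read over several SNPs counts once for each. In bulk tissue, fewer cells of a type and less RNA per cell cannot be told apart. The level ranged from 2311 to 3201 RPM, 1.38-fold, with a median of 2843. The R and R animals had 2311 and 2360, below each of the other 16 animals. The A and A animals had 2414, 2960 and 3201, the A and R animals 2474, 2494 and 3011, the A and B animals 2597 to 3103 and the B and R animals 2659 to 3134. These last 4 sets overlapped.

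The level was compared with the number of alternate alleles at the tag SNP of each of the 4 linkage groups by a permutation test over the 18 animals, two-sided, with Benjamini-Hochberg adjustment over the 4. None passed. For group B, Pearson's r was 0.458 (p = 0.0575, adjusted p = 0.122) and Spearman's rho 0.388 (p = 0.122, adjusted p = 0.323). For the group shared by A and B, r was 0.453 (p = 0.0610, adjusted p = 0.122) and rho 0.344 (p = 0.161, adjusted p = 0.323). For A1, r was 0.274 (p = 0.270, adjusted p = 0.360) and rho 0.196 (p = 0.431, adjusted p = 0.575), and for A, r was 0.05 (p = 0.844, adjusted p = 0.844) and rho 0.0336 (p = 0.904, adjusted p = 0.904). Leaving out the 2 animals farthest from the median genotype, over each way to choose among ties, gave r of 0.303 to 0.722 for B, 0.144 to 0.690 for the shared group, 0.00360 for A1 and -0.242 to 0.310 for A. The animals share a sire, so the test measures only the spread between these half-siblings.

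The comparison for group B was also made within regions of the transcript. With the reads of the 19 coding SNPs alone, the B carriers had 1120 to 1401 RPM (median 1205, n = 10) and the others 906 to 1278 (median 949, n = 8). Of the 8 animals without B, 2 (RS917 and RS930) were above the lowest carrier. This gave r = 0.701 (permutation test, p = 0.00199, adjusted p = 0.00796) and rho = 0.668 (p = 0.00409, adjusted p = 0.0164). Without the 2 farthest animals r was 0.630 to 0.879, and without each animal in turn 0.671 to 0.812. With the reads of the 33 SNPs of the 3′ UTR outside the run, an alternative chosen after seeing the data, the carriers had 1239 to 1499 and the others 1130 to 1602 RPM, and r was 0.161 (permutation test, p = 0.517, adjusted p = 0.517). The adjustment was over the 4 groups within each set of reads, and not over the sets of reads tried. The difference between the regions was not tested. Within animals, as given above, R held a mean coding share of 0.503 in the B and R animals, above an equal share in 3 of 6. In the A and B animals A held a mean coding share of 0.482, above an equal share in 1 of 4. How these shares relate to the coding level was not tested. B carriers and carriers of the ewe's B cannot be told apart here, as above.

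**Figure D5:**
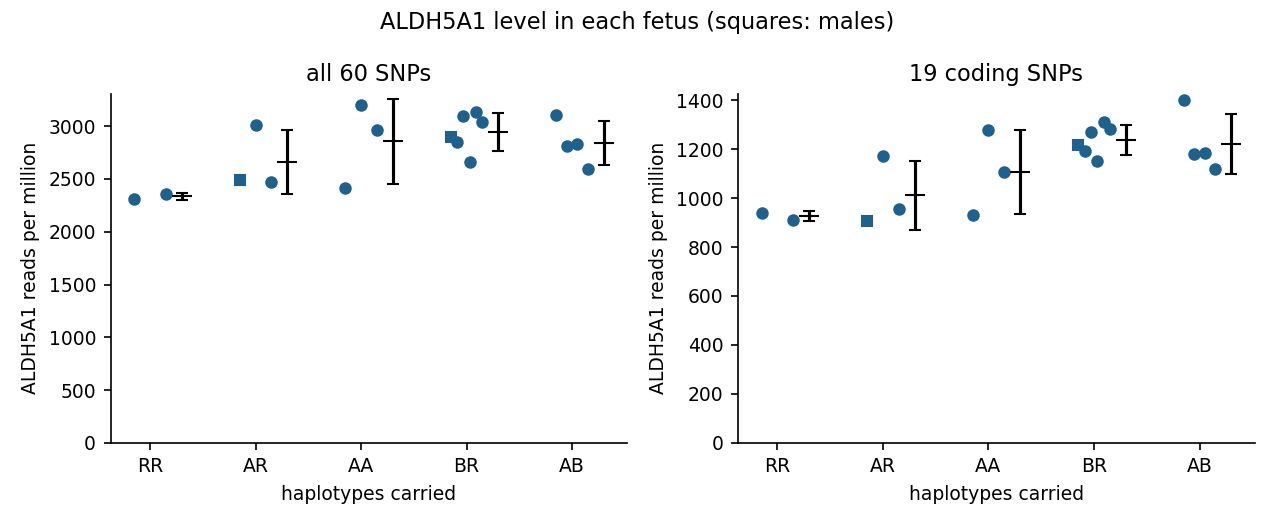
Each point is a fetus, with squares for the males, and the vertical axis starts at 0. The left panel shows ALDH5A1 RPM over the 60 SNPs and the right panel over the 19 coding SNPs, by the haplotypes carried, with black marks for the mean and SD of each set. The 2 R and R animals are at 2311 and 2360 on the left, and B carriers are at 1120 or above on the right.

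The males had 2494 and 2899 RPM and the females 2311 to 3201, so that both males lay within the females' range. The difference in mean log2 level, male minus female, was -0.05 (exact permutation test over 153 splits, two-sided, p = 0.680; the smallest p that 2 males allow is 0.00654). Without RS929 it was again -0.05 (exact permutation test, p = 0.684).

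Among 1240 genes with at least 3 SNPs and a mean of at least 500 reads per animal, the levels most like that of ALDH5A1 over the 18 animals were those of EMP2 (Spearman's rho 0.713), VWF (0.711), CDON (0.635), COL4A3BP (0.624) and TCN2 (0.616). VWF encodes the von Willebrand factor of endothelial cells, CDON a cell surface receptor and TCN2 the vitamin B12 carrier transcobalamin. The least like were R3HCC1 (-0.692) and PGM1 (-0.606), the latter an enzyme of glycogen metabolism. The median rho over these genes was 0.0671. The levels of 2 genes share the depth and composition of each library, and these values are a description.

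Of 17 other aldehyde dehydrogenase genes, 8 held a SNP in the table, and 7 of them had a SNP with AI, against 66.0% of the 5795 genes tested. Their 39 SNPs had a median reference share of 0.524, with 23 showing AI (45.0% over the table), 19 of these with the reference allele higher (33.8%), and 17 heterogeneous between animals (15.4%). In ALDH4A1, of proline breakdown, 10 of 14 SNPs showed AI and 7 were heterogeneous. In ALDH7A1, of lysine breakdown, 5 of 9 showed AI, and in ALDH6A1, of valine breakdown, 2 of 4. Of the genes with 3 SNPs, ALDH9A1, which oxidises aminobutyraldehyde to GABA, showed AI at 3 of 3 with a median share of 0.609 and a median dispersion of 56.6, the retinal dehydrogenase ALDH1A1 at 1 and ALDH16A1 at 1.

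Of 17 genes of the GABA shunt and of succinate metabolism, 9 held a SNP, and 8 had a SNP with AI (66.0% of genes over the table). Their 31 SNPs had a median reference share of 0.523, with 22 showing AI (45.0%), 19 with the reference allele higher (33.8%), and 11 heterogeneous (15.4%). ABAT, which makes the substrate of ALDH5A1 from GABA, was not measured. AKR7A2, which reduces that substrate to gamma-hydroxybutyrate, showed AI at 1 of 3 SNPs. D2HGDH, which uses the D form of hydroxyglutarate, showed AI at 7 of 9, and OGDH, a subunit of the oxoglutarate dehydrogenase complex, at 5 of 6. Of the subunits of succinyl-CoA ligase, SUCLG1 showed AI at 2 of 3 SNPs and SUCLG2 at 2 of 4. SDHB, a subunit of succinate dehydrogenase, showed AI at 3 of 3, with shares from 0.565 to 0.936.

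Another 4 genes within 1 Mb of ALDH5A1 on chromosome 20 held SNPs, and 8 of their 11 SNPs showed AI (45.0% over the table), 1 with the reference allele higher (33.8%) and 7 with the alternate allele higher (11.1%). At TDP2, a DNA repair enzyme, 7 of 7 SNPs showed AI, with the alternate allele higher at 6 of them and a median reference share of 0.393. C6orf62 had 1 SNP with a share of 0.0821 over 3 heterozygous animals. GMNN, an inhibitor of DNA replication licensing, and the mitochondrial magnesium channel gene MRS2 showed AI at 0 of 2 and 0 of 1 SNPs, with shares of 0.489 to 0.524.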

How the data were processed

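Perirenal adipose RNA of 18 fetuses was sequenced by the authors as paired end 100 bp reads (TruSeq kit v2). According to the methods and the submitters' processing notes, reads were aligned to Oar v3.1 with STAR allowing 10 mismatches, unique positions were kept, and SNPs were called with GATK (3.4-46 in those notes). A SNP was kept where both alleles reached 10 reads in 5 or more animals. The authors deposited raw counts of reference and alternate reads per SNP and animal, without normalization, with genotype calls and consequences. Their statistic, P-value, reference share and higher allele columns were not used. Reads with any other base are not in the counts, and a mapping preference for the reference allele would remain in them. The column written PS910 was taken as RS910, the only label with that number.

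From the counts, the Poisson likelihood ratio statistic (2 times the log ratio) was computed at each SNP over 0/1 animals, with Python 3.11.15 (scipy 1.17.1). Heterogeneity was measured by Pearson chi-square, level tested by permutation (100000 resamples), and a moderated quasi-binomial alternative used limma 3.58.1. The likelihood ratio test, the heterogeneity test and the linkage grouping were tested on simulated data. The permutation test, the quasi-binomial alternative and the haplotype assignment were not. No 2 libraries agreed within sampling noise (smallest chi-square per degree of freedom 3.79). The gene, lists and haplotype names were chosen with earlier results of these data known. Genes were named by fixed rank: the 5 most and 2 least alike in level, the listed genes with the most SNPs (5, and ties) and the neighbours. ABAT was named from its list after its absence was seen. No sequence was used here.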

Additional observations from a re-analysis of the deposited data

Results flagged for a closer look

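At 57 SNPs of ALDH5A1 with 4 to 10 heterozygous animals, the highest and lowest share were compared with the rest by Dixon's ratio, and 5 stood apart. Chance flags about 1 in 20 such groups, and SNPs of the gene share reads. At 32124973 RS910 had a reference share of 0.380 (95% Wilson interval 0.323 to 0.440), where the other 6 animals had 0.544 to 0.644. At 32125879 RS969 had 0.532 (0.470 to 0.593), where the others had 0.578 to 0.631. In the A/C run, RS917 had 0.0985 (0.0647 to 0.147) at 32127187 against 0.476 to 0.658 in the others. RS953 had 0.832 (0.774 to 0.877) at both 32127199 and 32127201, where the other animals had 0.885 to 0.922 and 0.887 to 0.927.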

How the results depend on the processing

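The AI count of 38 of 60 SNPs was 26 with animals as replicates (quasi-binomial F test). It was 33 with the median share of all SNPs as the null and 36 after Benjamini-Hochberg adjustment. With fewer SNPs, it was 27 after the 18 SNPs within 5 bp of another were left out, and 31 of 52 without the A/C run. The percentages over the whole table under these settings are not given here. These counts therefore cannot be set against the 45.0% of the main test. The 19 coding SNPs alone gave 12 with AI and 13 heterogeneous. Leaving out each animal in turn gave 33 to 40 SNPs with AI, 25 to 34 heterogeneous and a median reference share of 0.517 to 0.536.

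The correlation of the level with group B passed an unadjusted permutation p of 0.05 with size factors by the median of ratios (r = 0.502, p = 0.0355), with reads outside the linkage group (0.486, p = 0.0430) and with coding reads (0.701, p = 0.00199). Leaving out each animal gave 0.393 to 0.605 (p = 0.0118 to 0.119), and it passed without RS917, RS930, RS933, RS943 or RS953. The group shared by A and B gave 0.485 with coding reads (p = 0.0425) and 0.333 to 0.593 without each animal, passing without RS910, RS926, RS943 or RS947. A1 gave 0.122 to 0.358 without each animal. With a linkage threshold of 0.6 in place of 0.8, A, A1 and the shared group joined into 1 group with the tag SNP of A1, so that both A and the shared group had its r of 0.274 (p = 0.270) in place of 0.05 and 0.453, and B was as before. A threshold of 0.95 gave the values of 0.8. For group A, r was -0.0577 with size factors, -0.130 with coding reads and -0.107 to 0.222 without each animal. It was below 0 without RS905 (-0.0610), RS917 (-0.107), RS940 (-0.0465) or RS953 (-0.0152). The male minus female difference was -0.16 to 0.06 without each animal and above 0 without RS903 (0.0563), and the cause of these changes was not tested. The alternatives on the A/C run, on coding SNPs for the counts, on RS903 and on 3′ UTR reads were chosen after seeing the data. No paired analysis was possible because the 18 animals form 1 group. Precision is limited by the 2 to 6 animals of each haplotype pair and the depth of 134 to 265 reads.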
